A study of Mus musculus with 6 samples.

Results

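The genes described here are the WNT ligands, their receptors and co-receptors, the R-spondin system, the secreted WNT antagonists and 3 nuclear or feedback genes, as expressed by mouse pancreatic stellate cells (PSCs) at 21% O2 and at 1% O2. Members were the protein-coding genes whose symbol is Wnt, Fzd, Sfrp, Dkk or Rspo followed by a number, together with 16 genes taken by name (Frzb, Wif1, Lrp5, Lrp6, Lgr4, Lgr5, Lgr6, Ror1, Ror2, Ryk, Rnf43, Znrf3, Notum, Axin2, Lef1 and Tcf7). This gave 57 of the 55421 genes in the deposited table. The rule uses names only, though it was written with earlier results of these data known. PSCs are fibroblast-like cells of the pancreas that can become cancer-associated fibroblasts. They were isolated from adult wild-type C57BL/6 mice of either sex, kept as early-passage primary lines, and seeded in Matrigel in a transwell insert above organoids of mT3, a pancreatic ductal adenocarcinoma (PDAC) line derived from a mouse tumor. The cocultures were held for 48 h in normoxia (21% O2, 3 samples) or in hypoxia (1% O2, 3 samples), and total RNA of the PSCs was sequenced after poly(A) selection. Both groups carried the tumor organoids, so the comparison is of O2 within coculture, and PSCs cultured alone were not analysed here.

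WNT proteins are secreted lipid-modified ligands that bind frizzled receptors on nearby cells. With the co-receptors LRP5 or LRP6 they stabilize β-catenin, which enters the nucleus and acts with TCF/LEF factors, and with ROR1, ROR2 or RYK they act on cell polarity and movement without β-catenin. R-spondins bind LGR receptors and keep the ligases RNF43 and ZNRF3 from removing frizzled receptors from the membrane, whereas SFRP, DKK, WIF1 and NOTUM proteins block ligands or co-receptors outside the cell. In the pancreas this pathway is used in development and injury, and fibroblasts are among its sources of ligands and inhibitors.

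Library totals ran from 24749601 to 25914892 counts at 21% O2 and from 25847719 to 31925054 at 1% O2, and 3 counts, the floor used here for detection, were worth 0.0943 to 0.122 CPM (counts scaled to library size). Such floors cover counting error only. The 11 fibroblast and stellate markers were all above the filter on low counts, and their summed level was 18576 to 23522 CPM at 21% O2 and 18953 to 21459 at 1% O2, so the groups overlapped. Pdgfra and Pdpn were among the markers that rose and Lum and Thy1 among those that fell. Of the 10 epithelial and tumor markers, 7 had too few counts to be tested, with Epcam, Cdh1, Krt8, Krt18, Cldn4, Esrp1 and Elf3 at no more than 6 counts in any sample. The other 3 were detected, with Krt7 at 8 to 34 counts over all samples, Muc1 at 55 to 79 counts at 21% O2 and 99 to 135 at 1% O2, and Krt19 at 12 to 27 and 525 to 760 counts. The list summed to 3.23 to 5.31 CPM at 21% O2 and 25.1 to 28.9 at 1% O2. Most of this rise was that of Krt19 (0.715 to 22.1 CPM on average), the only marker of the list that was called. The 11 immune markers summed to 810 to 1417 CPM at 21% O2 and 422 to 738 at 1% O2, with 5 of 9 tested markers lower, 0 higher and Cd3e at 0. Sums of the 4 mesothelial markers (20.6 to 28.9 CPM at 21% O2, 40.6 to 42.1 at 1% O2) and the 3 Schwann cell markers (1.62 to 2.51 and 3.02 to 3.83 CPM) were higher at 1% O2 without overlap, with 1 gene of each list called. The mesothelial rise was that of Wt1 (24.3 to 41.2 CPM on average), since Msln, Upk3b and Lrrn4 had at most 16 counts in any sample and lower maxima at 1% O2. Of the 3 mural markers 2 were called higher, with overlapping sums of 33.4 to 41.8 and 41.4 to 63.7 CPM. The 5 endothelial markers (9.94 to 15.4 and 14.8 to 21.4 CPM, 1 higher and 1 lower) overlapped. Of the 5 acinar markers 4 had 0 counts, and the sum, Cela1 alone, reached 12.4 CPM at 21% O2 and 9.30 at 1% O2 without overlap (Cela1 log2 fold change -0.33, adjusted p = 0.0275, not called). The part of such cells in the WNT values was not tested. In bulk RNA, fewer cells of a type and less RNA per cell cannot be told apart. Nothing in the labels says whether the 3 samples of a group were separate PSC lines, so p-values measure only the spread between these samples. An exact permutation test of 3 samples against 3 cannot give a two-sided p below 0.1, and adjusted p-values come from edgeR's quasi-likelihood test fitted over 16207 genes unless another fit is named beside them.

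Of the 57 members, 35 had enough counts to be tested. A gene was called when its adjusted p was under 0.05 and its linear fold change was above 1.5. By this rule 8 members rose (22.9% of those tested, against 18.9% of all tested genes) and 10 fell (28.6%, against 15.3% of all tested genes). Together they were 18 members, 51.4% of those tested, where 34.2% of all tested genes were called. A further 6 passed the adjusted p alone, which gives 24 members (68.6%, against 62.7% of all tested genes). The hypoxic and normoxic samples did not overlap for 24 tested members (68.6%, against 68.9% of all tested genes). The median log2 fold change of hypoxia over normoxia was -0.31 for the tested members and -0.004 for all tested genes. Wnt2 and Lgr6 passed the filter only through their hypoxic samples and Wnt2b only through its normoxic samples, so these counts are a description of the members that could be measured. The plot of fold changes by class shows the spread of directions within each class.

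**Figure D1:**
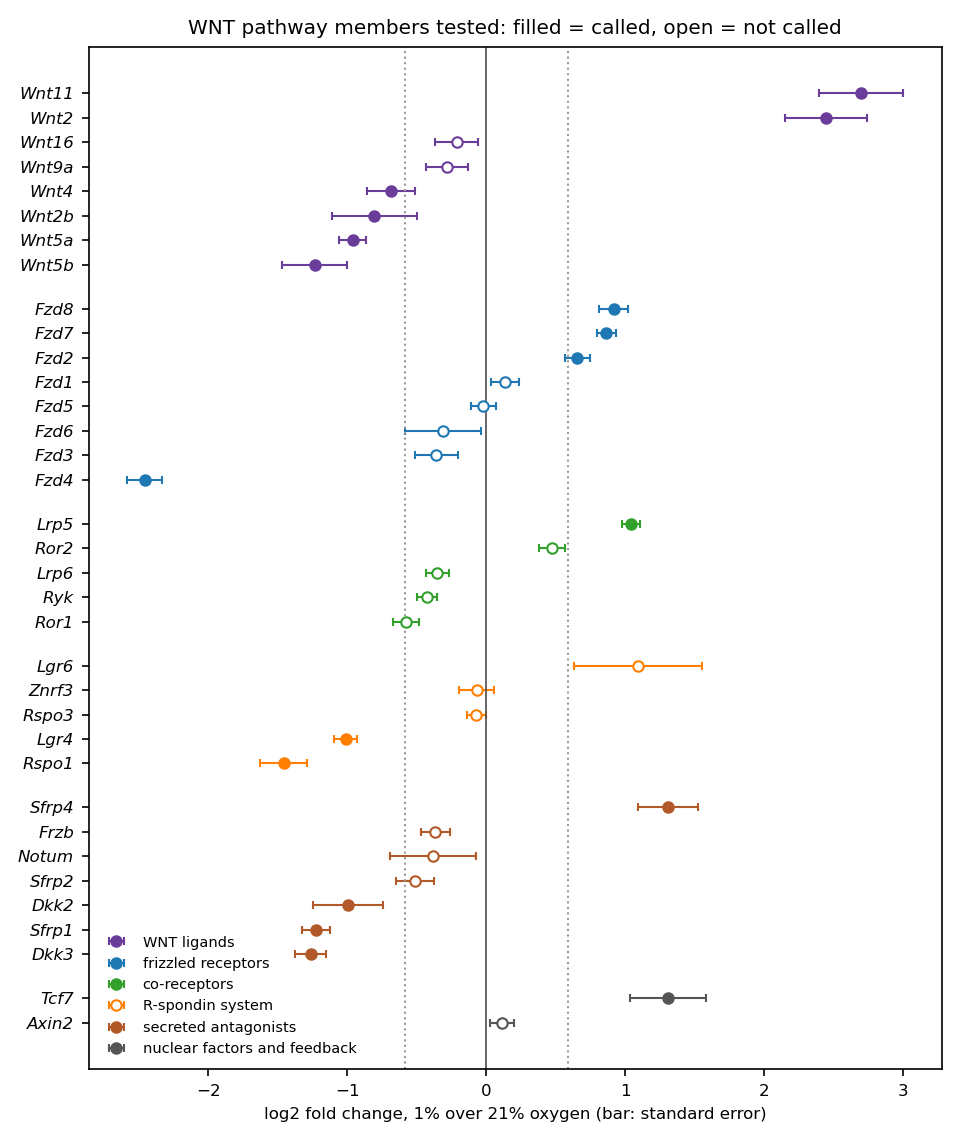
Log2 fold change of 1% over 21% oxygen for the 35 tested members (x axis), grouped and colored by class, with bars for the standard error and dotted lines at a linear fold of 1.5. Filled points are called members, from Fzd4 at -2.46 to Wnt11 at 2.70, and most classes hold members on both sides of 0.

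Promoter sequences are shown for the called members of at least 1 CPM with the largest changes, Wnt11 and Wnt2 at the high end and Fzd4 and Rspo1 at the low end. RefSeq promoters (GRCm38.p6) were matched for 38 of the 57 members, with 46 start sites. Only bases upstream of the start and outside annotated exons are printed, and capitals mark matches to ACGTG, the core letters of the hypoxia response element, or to CTTTGAT or CTTTGAA, letters bound by TCF/LEF factors, each searched on both strands over the 250 bases before the start. ACGTG is also part of the longer palindrome CACGTG, which can be read as another motif. Neither of the ACGTG matches printed here, in Wnt11 and Rspo1, lies within CACGTG. The Wnt11 window is chr7:98834862-98835111, plus strand. That of Wnt2 is chr6:18030586-18030695, minus strand, directly upstream of the GENCODE start. The Fzd4 stretch is chr7:89404223-89404354, plus strand, between the first exons of Fzd4 and of its neighbor Tmem135. For Rspo1 it is chr4:124986180-124986429, plus strand, within the annotated gene Gm12930 but in none of its exons.
Wnt11: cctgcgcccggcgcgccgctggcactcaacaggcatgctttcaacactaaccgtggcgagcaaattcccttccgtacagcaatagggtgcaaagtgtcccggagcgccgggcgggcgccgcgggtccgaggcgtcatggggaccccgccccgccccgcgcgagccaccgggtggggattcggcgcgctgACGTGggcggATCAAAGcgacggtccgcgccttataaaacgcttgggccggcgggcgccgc
Wnt2: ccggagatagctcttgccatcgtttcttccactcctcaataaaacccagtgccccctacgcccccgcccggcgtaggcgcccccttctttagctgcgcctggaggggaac
Fzd4: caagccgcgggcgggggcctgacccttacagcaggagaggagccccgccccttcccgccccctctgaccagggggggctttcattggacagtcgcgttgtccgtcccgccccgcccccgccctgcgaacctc
Rspo1: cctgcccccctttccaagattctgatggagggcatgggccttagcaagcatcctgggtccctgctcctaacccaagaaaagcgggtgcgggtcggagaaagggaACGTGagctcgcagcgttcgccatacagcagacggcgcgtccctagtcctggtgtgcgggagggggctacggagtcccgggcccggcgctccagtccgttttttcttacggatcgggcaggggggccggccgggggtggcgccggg
The Wnt11 window held ACGTG 61 to 57 bases before the start and, on the opposite strand, CTTTGAT 51 to 45 bases before it. A further annotated Wnt11 start, in an intron of the gene, had none of these letters in its window. Rspo1, which fell, held ACGTG 146 to 142 bases before its start, and the windows of Wnt2 and Fzd4 held no match. Over all 32851 RefSeq mouse promoters, 16.6% held ACGTG and 7.48% a TCF/LEF match, and over the member promoters the shares were 17.4% (8 of 46) and 6.52% (3 of 46). A match describes letters only, and binding was not measured.

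The WNT ligands changed in both directions, with 2 of the 8 tested ligands higher and 4 lower in hypoxic PSCs, and the 2 that rose were rare at 21% O2. Wnt11 (ENSMUSG00000015957; chr7:98835112-98855195, plus strand), a ligand of the β-catenin-independent branch, had 36, 19 and 33 counts in normoxic PSCs and reached 160, 322 and 184 in hypoxic PSCs. Every hypoxic sample was above every normoxic one, with hypoxia 2 the highest. It rose from 1.15 ± 0.371 to 7.45 ± 2.46 CPM (mean ± SD of 3 samples), and its log2 fold change was 2.70 (standard error [SE] of 0.30, adjusted p = 6.23e-05 by edgeR). Wnt2 (ENSMUSG00000010797; chr6:17988940-18030585, minus strand), a ligand that acts mainly through β-catenin, had 10, 8 and 13 counts at 21% O2 and 43, 81 and 75 at 1% O2. Its groups did not overlap, but each normoxic value was close to the limit for testing. The level of Wnt2 rose from 0.405 ± 0.113 to 2.21 ± 0.466 CPM, a log2 fold change of 2.45 (SE 0.30, adjusted p = 9.97e-05 by edgeR).

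The ligands that fell included the pair of WNT5 genes and Wnt4. Wnt5a (ENSMUSG00000021994; chr14:28504750-28527448, plus strand), the best known ligand of ROR2, had 1253, 1213 and 1214 counts in normoxic PSCs and 721, 666 and 772 in hypoxic PSCs. The normoxic samples lay close together and well above all hypoxic ones. It fell from 47.8 ± 1.64 to 24.6 ± 3.54 CPM (mean ± SD of 3 samples), and its log2 fold change was -0.96 (SE 0.10, adjusted p = 3e-05 by edgeR). Its relative Wnt5b had 94, 78 and 75 counts against 47, 36 and 36 at 1% O2, also without overlap, and fell by 1.23 on the log2 scale (SE 0.24, adjusted p = 0.00153). Wnt4, a ligand with roles in kidney and gonad formation, had 681, 527 and 795 counts at 21% O2 and 484, 426 and 520 at 1% O2. The lowest normoxic count was just above the highest hypoxic one. Wnt4 fell by 0.68 on the log2 scale (SE 0.17, adjusted p = 0.00717), but the change was -0.51 without normoxia 3 and -0.57 without hypoxia 2, both under the fold threshold. Wnt2b, a close relative of Wnt2, was under 1 CPM in both groups, with 27, 19 and 22 counts against 9, 17 and 19. Its log2 fold change was -0.81 (SE 0.30, adjusted p = 0.0428 by edgeR). It was the least stable of the called members, since the adjusted p passed 0.05 in 5 of the 6 fits that each left out 1 sample, from 0.0573 without hypoxia 3 to 0.135 without hypoxia 1. The other tested ligands, Wnt16 (log2 fold change -0.21, adjusted p = 0.247) and Wnt9a (-0.29, adjusted p = 0.127), overlapped between groups.

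Per kilobase of exon, Wnt4 and Wnt5a were the most abundant ligands at 21% O2, at levels of 6.24 ± 1.46 and 6.12 ± 0.21 CPM per kb that did not differ beyond their spread, and Wnt16 followed at 3.67 ± 0.668. At 1% O2 the levels of Wnt4 (3.89 ± 0.645), Wnt16 (3.16 ± 0.513) and Wnt5a (3.15 ± 0.453) were within their spread of each other. Wnt11 moved from 1.41% of the summed ligand level to 11.9%, and Wnt2 from 0.916% to 6.47%, while Wnt5a went from 31.2% to 20.8%. The summed level of all 19 ligands was 19.6 ± 2.62 CPM per kb at 21% O2 and 15.1 ± 0.29 at 1% O2, so the gains of Wnt11 and Wnt2 were smaller in amount than the losses of the abundant ligands. The plot of class make-up shows these shares. Of the 11 ligands that were not tested, Wnt3a and Wnt8b had 0 counts in all samples, and Wnt1, Wnt3, Wnt6, Wnt7a, Wnt7b, Wnt8a, Wnt9b, Wnt10a and Wnt10b had at most 7 counts in any sample. Wnt10b had 2, 0 and 2 counts at 21% O2 and 5, 5 and 7 at 1% O2. Wnt8a was at 0 in every normoxic sample and at 1, 1 and 2 in the hypoxic ones, below the floor, so no fold is given.

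**Figure D2:**
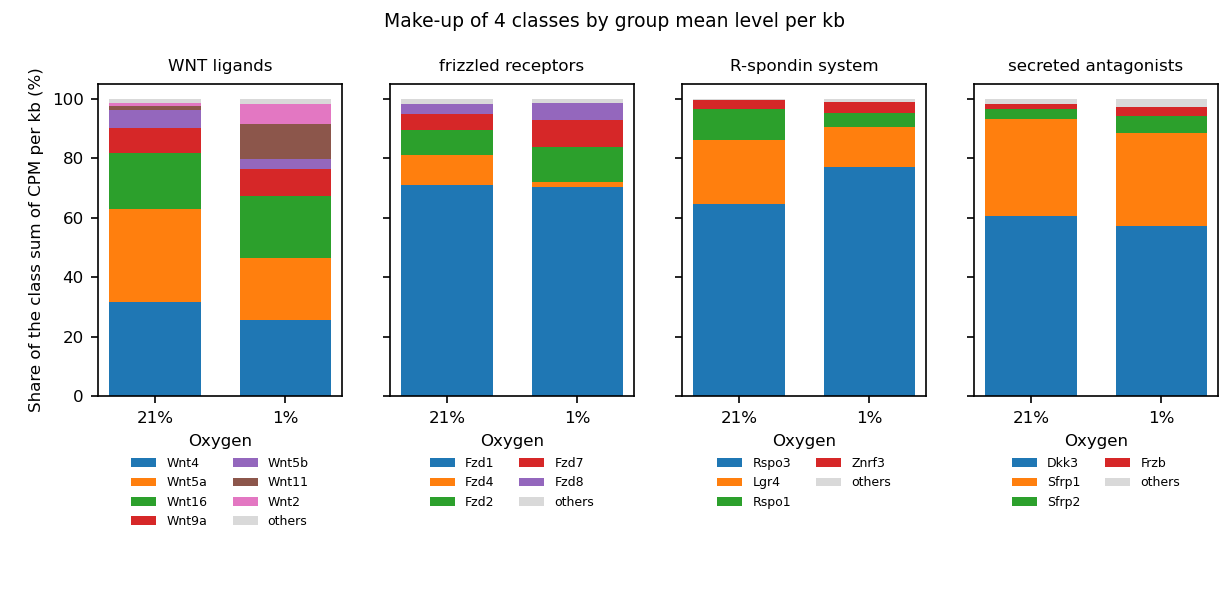
Share of each gene (y axis, percent) in the summed level per kb of its class at 21% and 1% oxygen, from group means of 3 samples. Wnt11 and Wnt2 together widen in the ligand bar at 1% oxygen, Fzd4 narrows from 9.94% to 1.63%, and Fzd1, Rspo3 and Dkk3 stay the most abundant gene of their class.

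Among the frizzled receptors, the membrane proteins that bind WNTs, 3 of 8 tested rose and 1 fell. Fzd4 (ENSMUSG00000049791; chr7:89404355-89413134, plus strand), which binds WNTs and also norrin, had the lowest log2 fold change of the 35 tested members. Its counts were 2544, 3509 and 2480 at 21% O2 and 478, 688 and 622 at 1% O2. The groups were far apart, and normoxia 2, the highest for Fzd4, was also the sample with the highest sum of immune markers (1417 CPM). Normoxia 1 and hypoxia 2 had immune sums of 810 and 738 CPM, mostly Lyz2 (653 and 546 CPM). Fzd4 was at 97.9 and 22.0 CPM in these samples, and the part of immune cells in its values was not tested. Fzd4 fell from 111 ± 19.6 to 20.1 ± 1.66 CPM (mean ± SD of 3 samples), and its log2 fold change was -2.46 (SE 0.12, adjusted p = 5.39e-07 by edgeR). Fzd7 (ENSMUSG00000041075; chr1:59482424-59486955, plus strand) had 1107, 1016 and 1071 counts in normoxic PSCs and 1940, 2515 and 2244 in hypoxic PSCs, with no overlap. It rose by a log2 fold change of 0.86 (SE 0.07, adjusted p = 8.39e-06). Fzd8 had 818, 781 and 850 counts against 1783, 1652 and 1841, again with all hypoxic samples higher, and a log2 fold change of 0.92 (SE 0.11, adjusted p = 7.15e-05). For Fzd2 the counts were 1423, 1192 and 1296 at 21% O2 and 2270, 2338 and 2440 at 1% O2. The groups did not overlap and the log2 fold change was 0.66 (SE 0.09, adjusted p = 0.00022), which fell to 0.57 without normoxia 2 or without hypoxia 1 and then missed the fold threshold.

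Fzd1 was by far the most abundant frizzled gene and was not called. Its level was 118 ± 17.1 CPM per kb at 21% O2 and 129 ± 6.59 at 1% O2 (SD, n = 3 each), with overlapping samples (log2 fold change 0.13, adjusted p = 0.276 by edgeR), and it made up 71.1% and 70.3% of the class. At 21% O2, Fzd4 (16.5 ± 2.92 CPM per kb, highest in normoxia 2) and Fzd2 (13.9 ± 1.36) overlapped, and Fzd4 stood at 2.99 ± 0.247 at 1% O2. Fzd2 (21.9 ± 2.15), Fzd7 (16.7 ± 1.08) and Fzd8 (10.1 ± 1.49) stood between Fzd1 and Fzd4 in hypoxic PSCs. The summed class was 166 ± 16.6 CPM per kb in normoxia and 183 ± 9.88 in hypoxia, and without Fzd1 it was 47.9 ± 0.491 and 54.4 ± 3.5. Fzd3 (log2 fold change -0.36, adjusted p = 0.0685), Fzd5 (-0.02, adjusted p = 0.85) and Fzd6 (-0.31, adjusted p = 0.34) were not called. Fzd9 and Fzd10 were not tested, with 2 to 9 and 5 to 16 counts per sample over both groups. Without normoxia 1, Fzd10 could be tested and was called lower (log2 fold change -1.16, adjusted p = 0.0463).

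**Figure D3:**
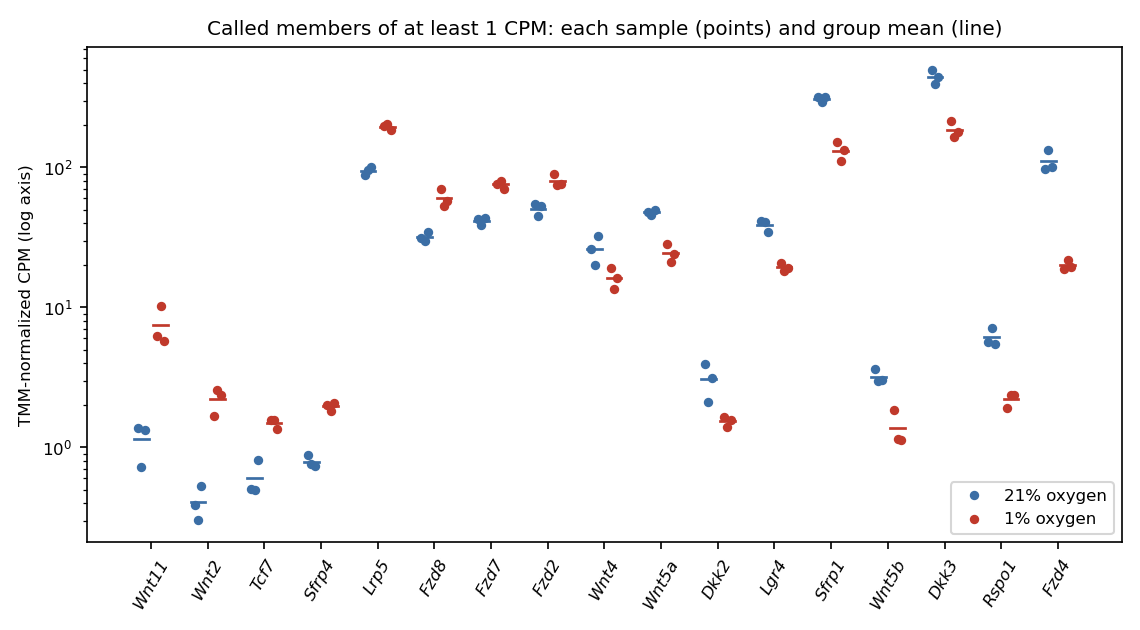
TMM-normalized CPM (y axis, log scale) of the 17 called members of at least 1 CPM in each of the 3 samples at 21% oxygen (blue) and 3 at 1% oxygen (red), with lines for group means, ordered by fold change. The blue and red points of a gene do not overlap for any of these 17 members, which were picked by their call. Of all tested genes, called or not, 68.9% did not overlap.

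All 5 co-receptors were tested, and Lrp5 alone was called. The groups did not overlap for any of the 5, as for 68.9% of all tested genes. Lrp5 (ENSMUSG00000024913; chr19:3584828-3686564, minus strand), a co-receptor of frizzled in β-catenin signaling, had 2283, 2534 and 2469 counts in normoxic PSCs and 5028, 6349 and 5895 in hypoxic PSCs. It rose from 94.7 ± 6.26 to 195 ± 8.90 CPM (mean ± SD of 3 samples), and its log2 fold change was 1.04 (SE 0.06, adjusted p = 1.79e-06 by edgeR). Its paralog Lrp6 had a log2 fold change of -0.35 (adjusted p = 0.0045). Per kb, Lrp6 stood at 12.4 ± 1.38 and Lrp5 at 9.73 ± 0.643 CPM at 21% O2, and at 1% O2 the order was the other way round, with Lrp5 at 20.0 ± 0.914 and Lrp6 at 9.74 ± 0.397. Of the receptor tyrosine kinases for WNT5A, Ror1 had a log2 fold change of -0.58 (adjusted p = 0.000678), just under the fold threshold, and Ror2 one of 0.47 (adjusted p = 0.00188). Ror1 was called with all 6 samples under upper-quartile factors (-0.60), library totals (-0.59), no filter on low counts (-0.60) and a gene length offset (-0.63), and also without normoxia 2 (-0.69) or hypoxia 3 (-0.61). Ryk, a receptor with an inactive kinase domain, was the most abundant at 43.6 ± 1.53 and 32.4 ± 2.92 CPM per kb (log2 fold change -0.43, adjusted p = 0.000649). The summed class was 81.3 ± 4.66 CPM per kb at 21% O2 and 77.2 ± 4.32 at 1% O2, with overlapping samples.

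In the R-spondin system 2 of 5 tested genes fell and 0 rose. Rspo1 (ENSMUSG00000028871; chr4:124986430-125009099, plus strand), a secreted enhancer of WNT signaling, had 148, 187 and 136 counts at 21% O2 and 49, 74 and 75 at 1% O2. The lowest normoxic count was well above the highest hypoxic one. Rspo1 fell from 6.10 ± 0.865 to 2.21 ± 0.251 CPM (mean ± SD of 3 samples), and its log2 fold change was -1.46 (SE 0.17, adjusted p = 7.5e-05 by edgeR). Lgr4 (ENSMUSG00000050199; chr2:109917647-110014257, plus strand), an R-spondin receptor, had 1073, 1079 and 856 counts against 527, 574 and 607, also apart. It fell from 39.0 ± 3.70 to 19.4 ± 1.21 CPM, a log2 fold change of -1.01 (SE 0.09, adjusted p = 1.09e-05). Rspo3, the most abundant R-spondin, had overlapping levels of 19.8 ± 1.66 and 18.8 ± 0.855 CPM per kb (log2 fold change -0.07, adjusted p = 0.404), and it held 64.5% of the class at 21% O2 and 77.2% at 1% O2. Without Rspo3 the class summed to 10.9 ± 1.10 CPM per kb in normoxic and 5.57 ± 0.104 in hypoxic PSCs. Znrf3, the ligase that removes frizzled receptors, had a log2 fold change of -0.07 (adjusted p = 0.646). Lgr6 rested on 23, 17 and 5 counts against 44, 25 and 40 (log2 fold change 1.10, adjusted p = 0.0637). Lgr6 was called with all 6 samples when the filter on low counts was dropped (1.07, adjusted p = 0.035), and also without normoxia 1 (1.53) or hypoxia 2 (1.34). Lgr5, Rspo2, Rspo4 and Rnf43 were not tested, and Lgr5 and Rspo4 had at most 2 counts in any sample. Rspo2 had 8, 10 and 4 counts at 21% O2 and 1, 0 and 3 at 1% O2, and the ligase gene Rnf43 had 0 counts throughout normoxia and 3, 3 and 11 counts in hypoxia.

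The secreted antagonists were the class with the highest summed level at 21% O2, and 3 of 7 tested fell while 1 rose. Dkk3 (ENSMUSG00000030772; chr7:112116017-112159057, minus strand), an abundant Dickkopf-family protein whose effect on WNT signaling differs from that of its relatives, had 12999, 10334 and 10856 counts in normoxic PSCs and 5420, 5168 and 5668 in hypoxic PSCs. All hypoxic counts were far below the normoxic ones. It fell from 132 ± 16.1 to 55.2 ± 7.37 CPM per kb (SD, n = 3 each), with a log2 fold change of -1.26 (SE 0.11, adjusted p = 1.5e-05 by edgeR). Sfrp1 (ENSMUSG00000031548; chr8:23411502-23449632, plus strand), a frizzled-related protein that binds WNTs, had 8217, 7702 and 7854 counts against 3861, 3485 and 4244. It fell from 70.7 ± 3.33 to 30.2 ± 4.63 CPM per kb, with a log2 fold change of -1.23 (SE 0.10, adjusted p = 1.04e-05). The summed level of all 11 antagonists was 218 ± 20.6 CPM per kb at 21% O2 and 96.4 ± 13.0 at 1% O2, a ratio of 0.443, and no sample overlapped. Dkk3 and Sfrp1 made up most of this sum, and without them it was 14.8 ± 1.82 and 11.0 ± 1.18. The plot of class sums shows this drop beside the smaller differences of the other classes.

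**Figure D4:**
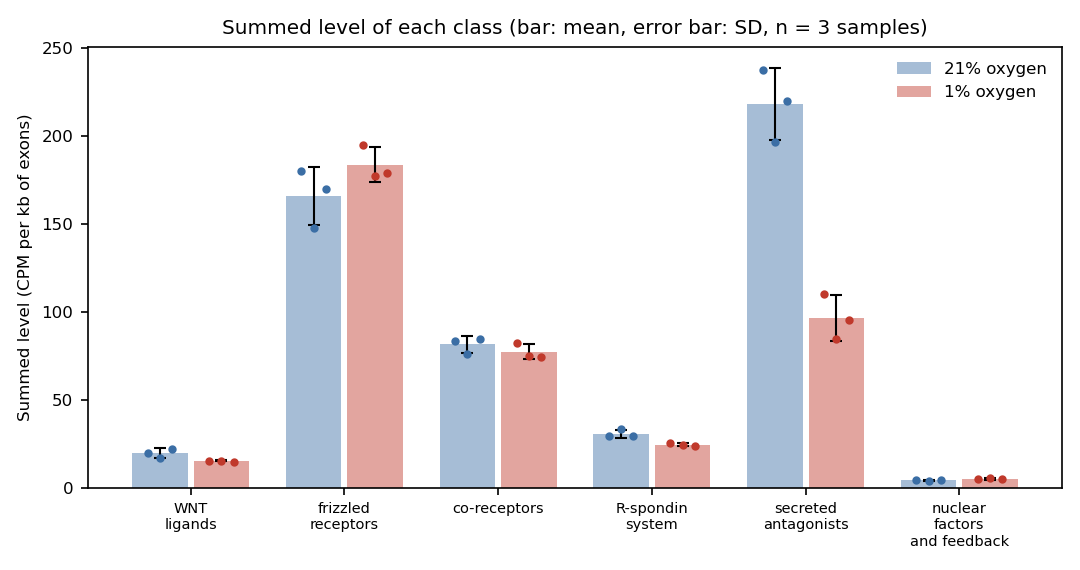
Summed level per kb of exon (y axis, CPM per kb) of each class at 21% (blue) and 1% (red) oxygen, with bars for means, error bars for SD and points for the 3 samples. The secreted antagonists go from 218 to 96.4 CPM per kb, and the frizzled and co-receptor sums stay close to their normoxic values.

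Dkk2, which binds LRP5 and LRP6, had 103, 56 and 77 counts in normoxic PSCs and 42, 44 and 50 in hypoxic PSCs. The groups did not overlap, although normoxia 2 came close, and Dkk2 fell from 3.07 ± 0.921 to 1.54 ± 0.125 CPM (log2 fold change -0.99, SE 0.25, adjusted p = 0.00689 by edgeR). Sfrp4, another frizzled-related protein, was the antagonist that rose, from 23, 20 and 18 counts to 51, 57 and 66. Its log2 fold change was 1.31 (SE 0.22, adjusted p = 0.000652), at a level of 0.47 ± 0.0315 CPM per kb at 1% O2 that was well below those of Dkk3 and Sfrp1. Sfrp2 (log2 fold change -0.51, adjusted p = 0.00993) and Frzb (-0.37, adjusted p = 0.0134) passed the adjusted p and not the fold, and without normoxia 2 Sfrp2 was called, at -0.64. Notum, an enzyme that removes the lipid from WNTs, had a log2 fold change of -0.38 (adjusted p = 0.303). Dkk1 and Dkk4 had 0 counts in all samples, Sfrp5 had 1 to 5 counts per sample, and the WNT-binding inhibitor gene Wif1 had 0 counts throughout normoxia and 4, 2 and 4 counts in hypoxia.

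Of the nuclear and feedback genes, Tcf7 rose and Axin2 was not called. Tcf7 (ENSMUSG00000000782; chr11:52252371-52283014, minus strand), the gene of a TCF/LEF transcription factor, had 13, 13 and 20 counts at 21% O2 and 40, 49 and 43 at 1% O2, without overlap. It went from 0.602 ± 0.182 to 1.5 ± 0.125 CPM (mean ± SD of 3 samples), and its log2 fold change was 1.31 (SE 0.27, adjusted p = 0.00254 by edgeR). Lef1, of the same factor family, had 4, 1 and 2 counts against 13, 8 and 10 and was not tested. Axin2, a feedback inhibitor widely used as a readout of β-catenin signaling, had 586, 530 and 572 counts in normoxic samples and 562, 824 and 727 in hypoxic samples. Its groups overlapped at 22.0 ± 1.63 and 23.7 ± 2.25 CPM, with a log2 fold change of 0.11 (SE 0.09, adjusted p = 0.29). Over all classes, 22 members were not tested. The highest count of any of these in a sample was 16, and 4 of them had 0 counts in all samples. When the filter on low counts was dropped, edgeR called Wif1, Lef1 and Rnf43 higher and Rspo2 lower.

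Exons of 8 tested members overlap genes on the other strand in the annotation, and the strand setting of the counting is not given in the sources used here. These are Wnt11, Wnt5a, Fzd5, Fzd6, Rspo3, Sfrp2, Notum and Axin2, whose values may include reads of the partner gene. No tested member overlapped another gene's exons on its own strand.

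Of 79 further genes of the pathway, 71 were tested, 13 rose and 10 fell, so that 32.4% were called against 34.2% of all tested genes. Their median log2 fold change was -0.06. Among 7 tested ligands, receptors and co-receptors outside the member list, the heparan sulfate proteoglycan gene Gpc3 rose from 57.8 ± 1.14 to 158 ± 5.66 CPM (mean ± SD of 3 samples), and its log2 fold change was 1.45 (adjusted p = 8.52e-08 by edgeR). Its relative Gpc4 fell by 0.73 on the log2 scale (adjusted p = 2.44e-05), and Musk, a receptor tyrosine kinase best known from the neuromuscular junction, fell by 1.36 (adjusted p = 0.000828). Of 11 tested antagonists outside the member list 3 rose and 5 fell. Kremen1, a receptor for DKK proteins, had a log2 fold change of 0.95 (adjusted p = 6.88e-06), and the dishevelled-binding Dact2 one of 1.90 (adjusted p = 6.94e-06). Igfbp4, an insulin-like growth factor binding protein that can also inhibit WNT receptors, fell from 4687 ± 237 to 1389 ± 8.89 CPM, a log2 fold change of -1.75 (adjusted p = 1.35e-07). The secreted inhibitor gene Draxin fell by 1.35 on the log2 scale (adjusted p = 9.42e-07). Tpbg also rose, and Apcdd1, Dact3 and Nkd1 also fell.

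The counts by group that follow stand beside 34.2% of all tested genes called and 62.7% with an adjusted p under 0.05. Inside the cell, 3 of 18 cytoplasmic transducers and destruction complex genes rose and 0 fell. Frat2, which binds the kinase GSK3, had 33, 34 and 34 counts at 21% O2 and 140, 169 and 135 at 1% O2, a log2 fold change of 1.94 (adjusted p = 1.97e-05 by edgeR). Dvl1, a dishevelled gene, was just past the fold threshold at 0.58 (adjusted p = 7.22e-05), and Frat1 also rose. The Dvl1 call was lost in 9 settings, among them upper-quartile factors (0.56), library totals (0.57) and the fit without normoxia 1 (0.52). None of the 12 nuclear partners was called by edgeR, although 6 passed the adjusted p alone, and neither Porcn nor Wls, needed to lipidate and secrete WNTs, was called. Among 10 tested planar polarity genes 3 rose and 1 fell. The atypical cadherin gene Celsr3 had 44, 61 and 56 counts in normoxic PSCs and 388, 583 and 506 in hypoxic PSCs, a log2 fold change of 2.98 (adjusted p = 4.59e-07). The formin gene Daam1 had one of 0.72 (adjusted p = 1.24e-05), Prickle2 fell by 1.10 on the log2 scale (adjusted p = 1.79e-06), and Prickle3 also rose. Of 11 tested genes often listed as WNT targets 3 rose and 2 fell. The AP-1 genes Fosl1 and Jun had log2 fold changes of 1.72 and 1.29 (adjusted p = 8.01e-08 and 2.11e-06), and Ccn5 also rose, a call lost with DESeq2 (adjusted p = 0.0577), without normoxia 2 (log2 fold change 0.44) and without hypoxia 1 or hypoxia 3 (adjusted p = 0.0747 and 0.0714 by edgeR). Snai2, a transcription factor of mesenchymal cells, and Ccnd1, the cyclin D1 gene, fell by 1.11 and 1.22 on the log2 scale (adjusted p = 3.66e-05 and 0.00321). Ccnd1 was at 24.8, 44.9 and 36.8 CPM in normoxic samples and 10.3, 21.3 and 13.8 in hypoxic samples. The macrophage marker Cd68, which also fell, was at 26.1, 47.8 and 38.4 and at 13.9, 26.5 and 15.1, with the same order of samples within each group. Of the 9 tested immune markers 5 fell and 4 were not called, among them Itgam and Cd14. The part of macrophages in the Ccnd1 values was not tested. Most of these target genes also respond to other pathways. Exons of Dact2, Dvl1, Prickle3, Tpbg, Ccnd1, Fosl1 and Jun overlap genes on the other strand, and those of Celsr3 overlap the gene Gm23156 on its own strand.

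**Figure D5:**
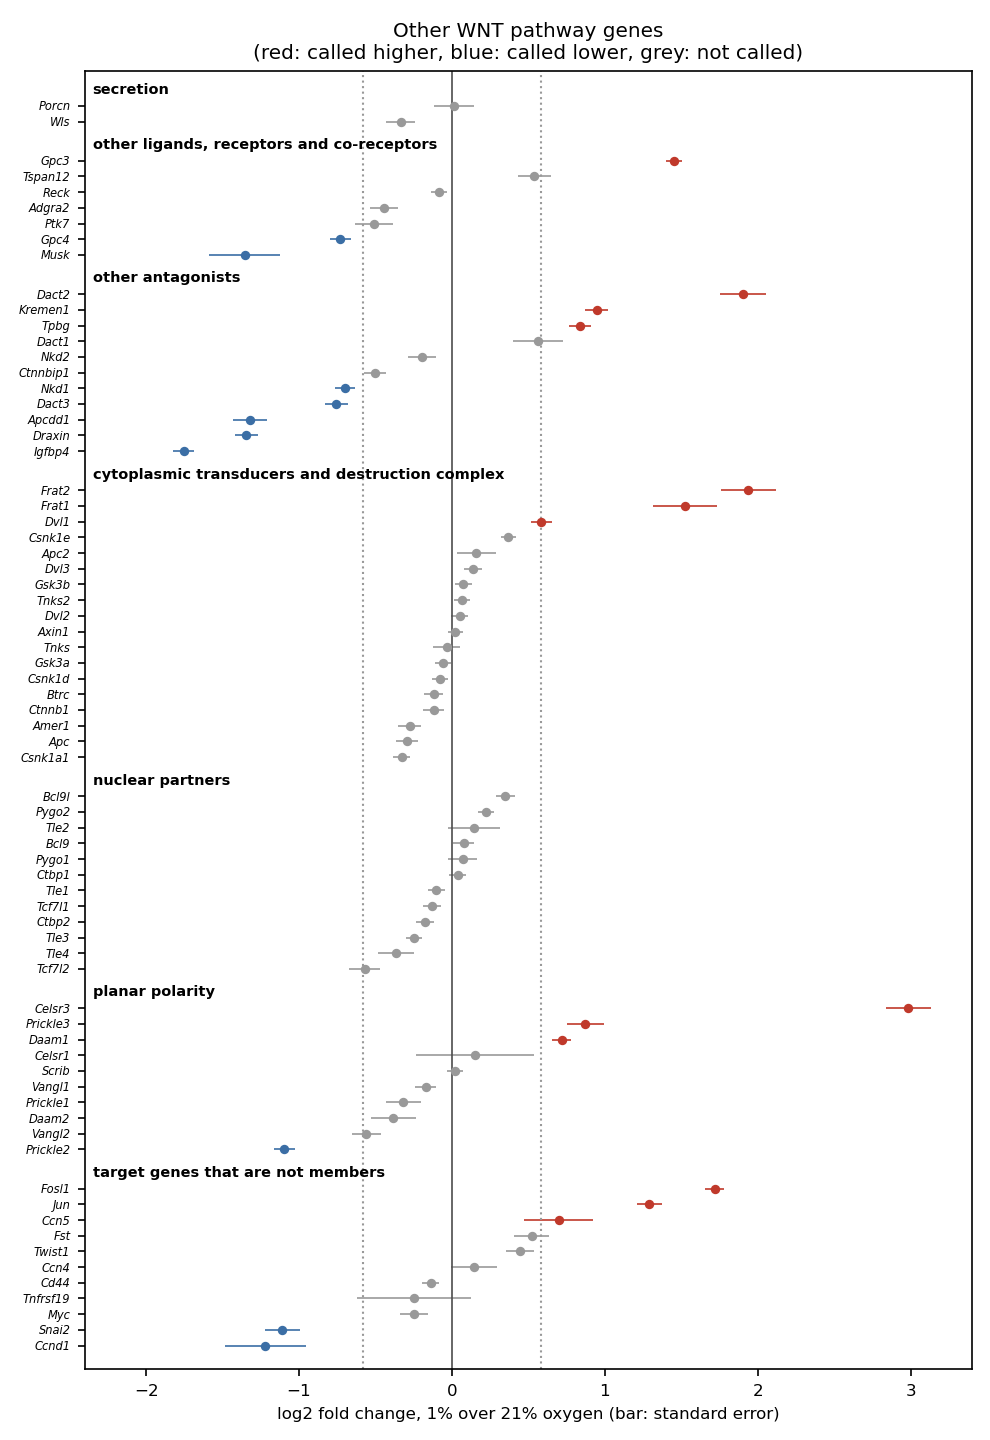
Log2 fold change of 1% over 21% oxygen (x axis, bars for the standard error) for the 71 tested pathway genes outside the member list, by group. Red points rose, blue points fell and grey points were not called, with Celsr3 at 2.98 and Igfbp4 at -1.75 as the extremes and no called gene among the nuclear partners.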

How the data were processed

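RNA of 6 PSC samples was sequenced after poly(A) selection. Per the submitters' processing notes and the study's methods, the authors mapped reads to GRCm38 with STAR (2.6.1b) and assigned them to genes with RSEM (1.3.1). What the authors deposited are RSEM expected counts (estimated counts per gene), which were not normalized between samples. All were whole numbers, so rounding changed nothing. RSEM divides reads shared by similar genes by an estimate, which leaves near-identical genes uncertain. The annotation release is not given in the sources used here. Names, exons and coordinates came from GENCODE M21. The 5 transgene features of the table held 0 counts and were left out.

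With edgeR (4.0.16, R 4.3.3), genes were filtered by filterByExpr, which kept 16207, scaled by TMM and compared by the quasi-likelihood test with Benjamini-Hochberg adjustment over all of them. Standard errors were derived from the log2 fold change and the F statistic (size over root F). CPM relate a count to the TMM-scaled library size, and levels per kb divide CPM by the summed exon length. All 6 samples entered the fit, except where a sample was left out as an alternative, and each labelled sample was 1 replicate. Tested on simulated counts for hypoxia against normoxia over 15982 genes, edgeR recovered 188 of 195 changed genes with 7 false calls. Recovery was not tested with as large a share of changed genes as in the PSC data, where 34.2% of tested genes were called. Recovery of genes near the fold threshold was not tested separately.

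Members and lists were chosen with earlier results of these data known. Full values are given for called members with a mean of at least 1 CPM in either group, and for other pathway genes, per group, for up to 2 called higher and 2 called lower with the lowest p. Alternatives were DESeq2 (1.42.0) with and without a replicate block, limma-voom (limma 3.58.1), the block in edgeR, other scalings, filters and fold thresholds, each sample left out, and, chosen after seeing the data, gene length and GC offsets. PSCs cultured alone and the study's other assays were not analysed here.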

Additional observations from a re-analysis of the deposited data

How the results depend on the processing

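Of the 18 called members, 15 kept their call under each of the other scalings, filters, tools and offsets and with each sample left out. Wnt2b lost it in 9 of the 16 settings that tested it, and the filter of at least 1 CPM in 3 samples left it untested. Wnt4 and Fzd2 lost it with samples left out, and the tested members Ror1, Lgr6 and Sfrp2 gained one in some settings. Without the filter on low counts 12 members were higher and 11 lower, among them 4 that were otherwise untested (Wif1, Lef1 and Rnf43 higher, Rspo2 lower), and Fzd10 was called lower without normoxia 1. With each sample left out the members called higher numbered 7 to 9 and lower 8 to 12, and the other pathway genes 12 to 14 and 10 to 12. A fold beyond 2, stricter by construction, left 5 members higher and 6 lower, 7 other pathway genes higher, and 1929 genes higher and 1227 lower of all tested. Without a fold threshold, looser by construction, 20 other pathway genes were higher and 26 lower, and 5150 and 5018 of all genes. Fzd5, near 0 at -0.02, changed sign with the GC offset (0.027) and ran from -0.078 to 0.035 with samples left out, and the cause was not tested. Deviations from the group means correlated between same-numbered samples at 0.14, 0.14 and 0.04, so the numbers were not taken as pairing, and each sample did correlate best with its own number. With the replicate block 9 members were higher and 9 lower (Lgr6 gained, Wnt2b lost), and 13 and 10 other pathway genes. Levels per kb by the longest transcript moved beyond 1 SD for 14 of 50 values. The 22 untested members had at most 16 counts in any sample, so calls among them rest on few counts.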
